A study of Rattus norvegicus with 10 samples.

Results

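The miR-23/27/24 clusters were examined in the left ventricle of rats given dexmedetomidine (DEX) or saline. Members were chosen by name: the 7 array features named rno-miR-23a-3p, rno-miR-23b-3p, rno-miR-24-3p, rno-miR-24-1-5p, rno-miR-24-2-5p, rno-miR-27a-3p and rno-miR-27b-3p, of 761 miRNAs on the array. All 7 were detected on all 10 arrays. The Control group was 5 male Wistar rats of 250 to 350 g that received a saline infusion, and the DEX group was 5 such rats that received DEX, a sedative agonist of alpha2 adrenergic receptors, for 30 min. The methods describe intravenous infusion by the tail vein and RNA taken from the anterior wall of each heart before any ischemia. No strain, allele or age difference between the groups is given. Each array measured the RNA of 1 heart with 1 spot per miRNA, labelled with Cy5, so the 5 arrays of a group are treated as 5 animals. The tissue holds heart muscle, endothelium, smooth muscle, fibroblasts and blood. In such a sample, fewer cells of a type and less RNA per cell cannot be told apart.

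MicroRNAs are short RNAs that guide Argonaute proteins to messenger RNAs, mainly by pairing through the seed, bases 2 to 8 from the 5′ end, and lower the stability and translation of those messages. The miR-23, miR-27 and miR-24 hairpins lie close together in a pair of paralogous clusters, and the hairpins of a cluster are thought to be cut from 1 shared primary transcript by Drosha and then by Dicer. The 3p arm is the one usually kept from these hairpins, and the 5p arm is mostly degraded. In the heart and its vessels, miR-23 and miR-27 are known as promoters of angiogenic signalling in endothelium. miR-24 is known for effects on survival of endothelial cells and cardiomyocytes, and miR-23a for a part in hypertrophic growth of cardiomyocytes.

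The mature sequences, from RefSeq (build GRCr8), are shown because paralogues share the seed that selects targets and differ only near the 3′ end. The seed is in capitals.
rno-miR-23a-3p: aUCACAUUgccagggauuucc
rno-miR-23b-3p: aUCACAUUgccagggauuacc
rno-miR-27a-3p: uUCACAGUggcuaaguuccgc
rno-miR-27b-3p: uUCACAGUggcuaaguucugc
rno-miR-24-3p: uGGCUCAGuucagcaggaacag
rno-miR-24-2-5p: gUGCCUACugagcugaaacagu
rno-miR-24-1-5p: gUGCCUACugagcugauaucag

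The members fell into 4 seed groups. Among the rat mature miRNAs of that table, UCACAUU was carried by 2 names (miR-23a-3p and miR-23b-3p), UCACAGU by 2 (miR-27a-3p and miR-27b-3p), UGCCUAC by 2 (both miR-24 5p arms) and GGCUCAG by miR-24-3p alone. With positions counted from 1 at the 5′ end and the first-named sequence given first, miR-23a-3p and miR-23b-3p differed at 1 of 21 bases, U19A. miR-27a-3p and miR-27b-3p also differed at 1 of 21 bases, C19U. The miR-24 5p arms differed at 5 of 22 bases (miR-24-2-5p first: A17U, C19U, A20C, G21A and U22G), none of them in the seed. Whether the array's probes tell paralogues with 1 differing base apart was not tested, so the signals of miR-23a-3p and miR-23b-3p, and those of miR-27a-3p and miR-27b-3p, may share target RNA.

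The miR-23a/27a/24-2 cluster spans 389 bases at chr19:40859455-40859843 on the minus strand of GRCr8, overlaps no other annotated gene, and has Zswim4 and Nanos3 as its nearest protein-coding neighbours. The miR-23b/27b/24-1 cluster spans 814 bases at chr17:1818669-1819482 on the minus strand and overlaps the annotated spans of Fancc, Aopep and Mir3074. Mature miR-24-3p is encoded by both clusters, at chr19:40859481-40859502 and at chr17:1818672-1818693, so its signal cannot be assigned to either. The 5p arms of the same hairpins do differ and lie at chr19:40859517-40859538 (miR-24-2-5p) and chr17:1818710-1818731 (miR-24-1-5p). The hairpins that carry them are shown with both mature arms in capitals, the 5p arm first, since the shared 3p arm and the distinct 5p arms can be read from them.
Mir24-2: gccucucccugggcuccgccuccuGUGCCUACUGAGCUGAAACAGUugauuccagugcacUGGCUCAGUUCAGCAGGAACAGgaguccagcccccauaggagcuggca
Mir24-1: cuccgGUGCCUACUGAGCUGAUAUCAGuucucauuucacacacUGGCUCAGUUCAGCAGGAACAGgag

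Signals are spot intensities after subtraction of the array's blank spots, scaled so that the median over the miRNAs detected on that array is 25 arbitrary units. Probes differ in affinity, so a signal is compared between arrays and not between miRNAs. The lowest signal that an array could detect (its floor) lay between 3.64 and 5.09 units. DEX 1 was the dimmest array before scaling, with a median of detected miRNAs over the blank of 17.3 against 35.4 to 53.5 on the other arrays. The scanner records carry 3 array names, 1 shared by Control 1 to Control 4, 1 by Control 5 and DEX 1 to DEX 3, and 1 by DEX 4 and DEX 5. These sets are called slide 1, slide 2 and slide 3 here, although the labels do not state that an array name marks a physical slide. They were largely entangled with treatment.

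None of the 7 members passed the test between DEX and Control. Their mean signals were 1.04 to 1.13 times as high in the DEX group as in the Control group, the groups overlapped for every member, and the 95% intervals of the differences included 0 in every case. In the limma fit over all 503 tested miRNAs with Benjamini-Hochberg adjustment, 0 of the 7 members had an adjusted p under 0.05 or an unadjusted p under 0.05. The background was 0 of 503 called (0%), with 15 of 503 at an unadjusted p under 0.05.

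In the miR-23 pair, rno-miR-23a-3p gave 3042, 2843, 2220, 2685 and 3794 units on Control 1 to Control 5 and 3267, 3107, 2749, 2817 and 3626 units on DEX 1 to DEX 5. The lowest array was Control 3 and the highest was Control 5, so the DEX arrays lay inside the Control range. The mean signal was 2917 ± 577 units (SD, n = 5) in Control and 3113 ± 356 units (SD, n = 5) in DEX, and the log2 difference was 0.11 ± 0.16 (± SE; adjusted p from limma, 0.914). Its paralogue rno-miR-23b-3p gave 3028, 2889, 2049, 2390 and 3614 units on the Control arrays and 3301, 2881, 2458, 2750 and 3666 units on the DEX arrays. Control 3 was again lowest, while DEX 5 was slightly above Control 5. The mean signal was 2794 ± 603 units in Control and 3011 ± 476 units in DEX (SD), a log2 difference of 0.12 ± 0.18 (± SE; adjusted p from limma, 0.914).

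In the miR-27 pair, whose members are known as regulators of fat metabolism as well as of vessel growth, rno-miR-27a-3p gave 1854, 1712, 1294, 1735 and 2115 units on the Control arrays and 1836, 1823, 1636, 1619 and 2111 units on the DEX arrays. Control 5 and DEX 5 were almost equal at the top, and Control 3 was lowest. Means were 1742 ± 297 units in Control and 1805 ± 199 units in DEX (SD), and the log2 difference of 0.062 ± 0.15 (± SE; adjusted p from limma, 0.930) was the smallest among the 7 members. rno-miR-27b-3p gave 1243, 1234, 919, 1254 and 1426 units on the Control arrays and 1462, 1309, 1343, 1145 and 1603 units on the DEX arrays. Here 4 of 5 DEX arrays exceeded Control 1 to Control 4, but DEX 4 was below all Control arrays other than Control 3. The means were 1215 ± 184 units in Control and 1373 ± 172 units in DEX (SD), and the log2 difference of 0.18 ± 0.15 (± SE; adjusted p from limma, 0.905) was the largest among the 7 members.

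For miR-24, the 3p arm that both clusters encode gave 2379, 2214, 1725, 2200 and 3006 units on the Control arrays and 2576, 2523, 2263, 2201 and 2920.5 units on the DEX arrays. Control 3 and Control 5 again bounded the range of rno-miR-24-3p, with all DEX arrays between them. Means were 2305 ± 462 units in Control and 2497 ± 287 units in DEX (SD), a log2 difference of 0.13 ± 0.16 (± SE; adjusted p from limma, 0.905).

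The 5p arms, which come from the separate hairpins, had signals from 11.5 times the floor upward, well within the measured range. They share 17 of 22 bases, and whether their probes tell them apart was not tested. rno-miR-24-2-5p, from the miR-23a cluster, gave 94.0, 83.9, 77.4, 95.8 and 132 units on the Control arrays and 112, 109, 92.0, 91.6 and 125 units on the DEX arrays. rno-miR-24-1-5p, from the miR-23b cluster, gave 57.4, 60.8, 52.8, 64.6 and 70.7 units on the Control arrays and 69.1, 75.2, 67.6, 53.6 and 76.1 units on the DEX arrays. The groups overlapped for both arms: DEX 4 was near the bottom of the Control range for miR-24-1-5p, and Control 5 was the highest of all arrays for miR-24-2-5p. The log2 difference was 0.15 ± 0.17 (± SE; adjusted p from limma, 0.905) for rno-miR-24-2-5p and 0.15 ± 0.14 (± SE; adjusted p from limma, 0.905) for rno-miR-24-1-5p.

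**Figure D1:**
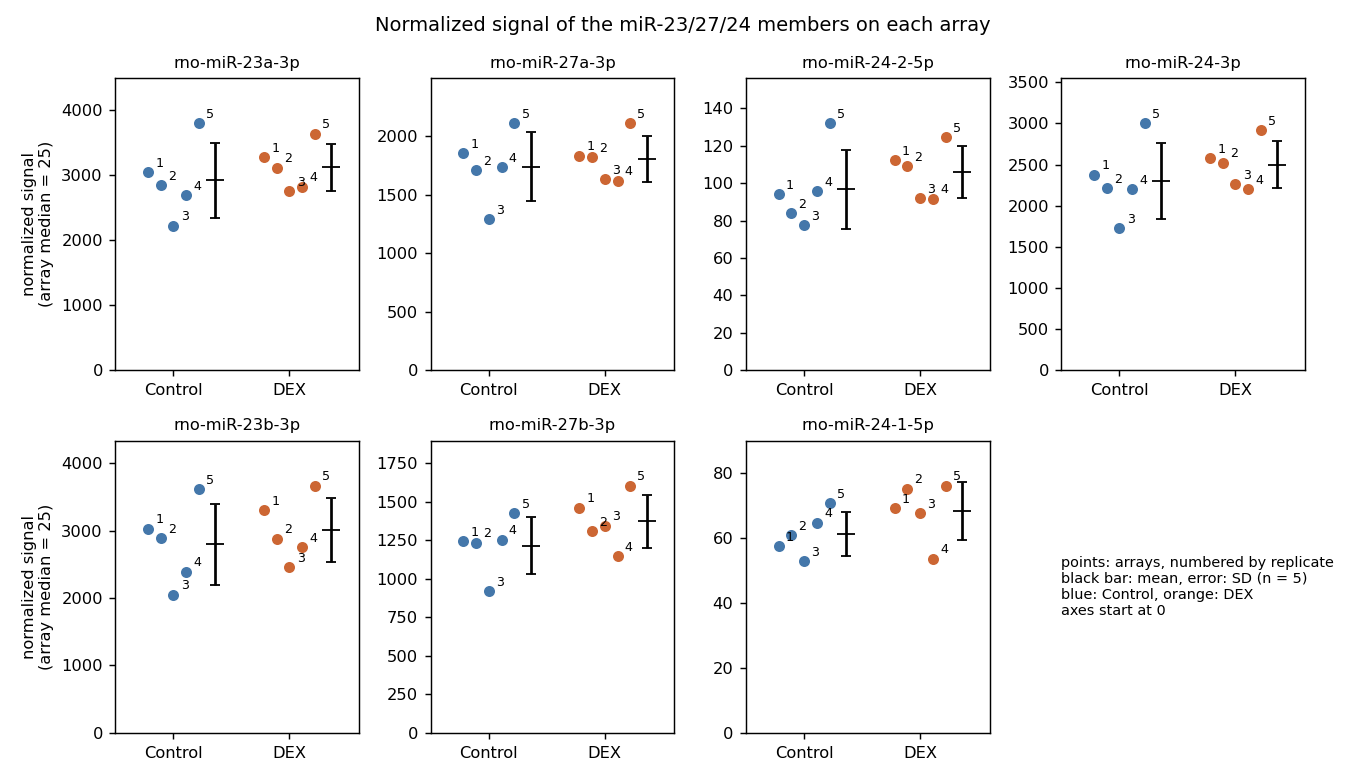
Normalized signal (vertical axis, arbitrary units, starting at 0) of each member on the 5 Control and 5 DEX arrays (points, numbered by replicate), with the mean and SD of each group as black bars. Control and DEX points overlap for all 7 members, and Control 3 is the lowest of the 10 arrays for each of them.

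The intervals come from the fit without a slide term, so they do not cover a difference between the slide sets. Over the 7 members, the lower 95% bounds lay between 0.828 and 0.901 times the Control level and the upper bounds between 1.32 and 1.43 times. In this fit a change past 1.5-fold in either direction was therefore outside the interval for every member, while smaller changes in either direction remained inside it. In an alternative that used the scanner's background column, the log2 differences of miR-23a-3p (-1.67) and miR-27b-3p (1.82) lay past 1.5-fold. Those of the other members did not. The adjusted p from limma was 0.997 for both of these miRNAs in that alternative. The background column exceeded the spot on 3 arrays for miR-23a-3p and on 2 for miR-27b-3p, and also on 3 for miR-23b-3p and 1 for miR-24-3p.

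All 7 estimates were above 0, with a median log2 difference of 0.13. Over all tested miRNAs the median was 0.044 and 298 of 503 (59.2%) were higher in DEX. The members are bright, and among the brightest 168 tested miRNAs, which include them, 139 (82.7%) were higher in DEX with a median of 0.11. The shared direction thus was common among miRNAs of like brightness. The median of the dimmest 168 was 0.023 and that of the middle 167 was -0.047.

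**Figure D2:**
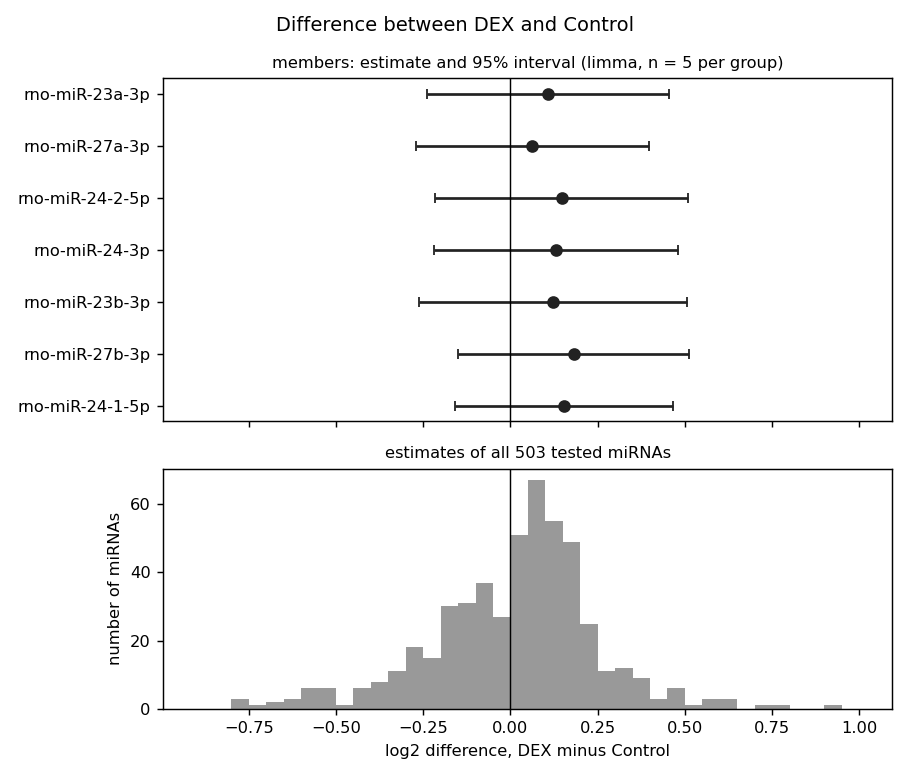
The upper panel shows the log2 difference (DEX minus Control, horizontal axis) of each member with its 95% interval from the limma fit. The lower panel shows the number of miRNAs at each log2 difference among all 503 tested. Member estimates lie between 0.062 and 0.18, every interval includes 0, and the estimates sit within the bulk of all miRNAs.

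The sign of the member estimates depended on the scaling. Leaving out 1 array changed their size, and changed the sign only for miR-27a-3p, without Control 3. Leaving out the scaling between arrays moves every miRNA by about the same amount: all 7 log2 differences were then below 0, from -0.14 for miR-27a-3p to -0.024 for miR-27b-3p, and the median over all tested miRNAs was -0.16. Relative to that median the members' median was 0.087 with and without scaling. With quantile normalization miR-23a-3p and miR-23b-3p were below 0 (-0.073 and -0.0067). Within slide 2, the only shared array name with both groups, DEX 1 to DEX 3 minus Control 5 was below 0 for all 7 members, from -0.35 for miR-24-2-5p to -0.0019 for miR-24-1-5p. That value rests on 1 Control array, Control 5, which under this scaling was the highest Control array for all 7 members.

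Control 3 was the lowest of the 10 arrays for 7 of 7 members, and for 97 of the 160 other miRNAs (60.6%) of the brightest 168 that were detected on every array. On Control 3, members lay from -0.28 (miR-24-1-5p) to -0.48 (miR-27b-3p and miR-23b-3p) on the log2 scale relative to their own mean over the 10 arrays, where the median of those other bright miRNAs was -0.30. Without Control 3 the log2 differences between the groups became 0.016 for miR-23a-3p, 0.016 for miR-23b-3p, 0.032 for miR-24-3p, -0.040 for miR-27a-3p, 0.084 for miR-27b-3p, 0.073 for miR-24-2-5p and 0.10 for miR-24-1-5p. Other arrays mattered too. Without Control 5 the log2 differences of miR-23a-3p, miR-23b-3p, miR-24-3p and miR-27a-3p were 0.21, 0.22, 0.23 and 0.14, and without DEX 5 they were 0.052, 0.047, 0.072 and 0.0043.

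**Figure D3:**
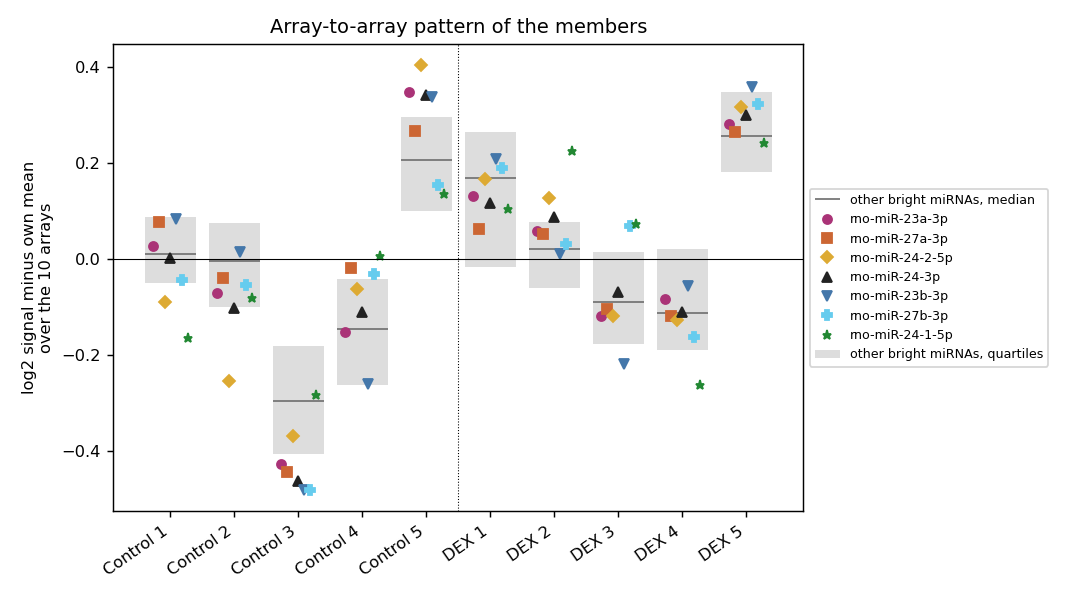
Log2 signal of each member on each array minus its own mean over the 10 arrays (vertical axis), beside the quartiles and the median of the 160 other bright miRNAs (grey boxes and lines). All members are low on Control 3 and high on Control 5 and DEX 5, as are most other bright miRNAs. The dotted line parts Control from DEX.

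The authors' processed scores gave narrower DEX groups, and narrower Control groups except for miR-24-1-5p. For miR-24-1-5p the coefficient of variation in DEX was 10.8%, where the scaling used above gave 13.2%. Over the 405 miRNAs that have scores on all 10 arrays, the median score was 25 on every array, so the scores are scaled over that common set. In these scores rno-miR-23a-3p was 1882 ± 248 in Control and 2045 ± 60.2 in DEX (SD, n = 5), a coefficient of variation of 13.2% and 2.95%, where the scaling used above gave 19.8% and 11.4%. The DEX scores ran from 1970 to 2137 and the Control scores from 1549 to 2217, with 4 of 5 Control arrays below the lowest DEX array and Control 5 above them all. rno-miR-24-3p was 1488 ± 212 in Control and 1640 ± 68.2 in DEX, and rno-miR-27b-3p was 788 ± 98.9 in Control and 902 ± 65.7 in DEX (SD). The log2 differences in the scores lay between 0.084 (miR-27a-3p) and 0.20 (miR-27b-3p), and the smallest limma adjusted p among the 7 members was 0.617. The spread between arrays thus differed between the scalings, while no member passed the threshold under either scaling. Control 3 had the lowest score of the 10 arrays for 5 of 7 members, and Control 5 had the highest Control score for 4 of 7.

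Members followed each other closely from array to array. For 2 miRNAs, the SD over the 10 arrays of their within-array log2 difference measures how far they part from a fixed ratio, and the scaling cancels in it. The arrays share animal, labelling and slide between probes, so these values are a description. The median SD was 0.11 over the 21 pairs of members and 0.22 over the 12720 pairs of the 160 other bright miRNAs, while single members varied with SDs of 0.19 to 0.27. By mean signal the 3p members ranked from 10 to 35 among all miRNAs on the array, and the 5p arms ranked 121 and 151. The 160 others were not matched to them in brightness, so the lower median is not read as a trait of the clusters. The closest pair was miR-23a-3p and miR-24-3p, at 0.032. Next came miR-24-3p with miR-27a-3p at 0.058 and miR-23a-3p with miR-27a-3p at 0.062. Those 3 pairs link the 3p arms encoded in the miR-23a/27a/24-2 cluster, and they stayed the closest 3 without Control 3 and in the authors' scores.

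Among the products of the other cluster, miR-23b-3p with miR-27b-3p had an SD of 0.15 and miR-23b-3p with miR-24-1-5p had 0.22, the widest of the 21. miR-24-1-5p with miR-27b-3p had 0.114, close to the 0.115 of miR-24-2-5p with miR-27a-3p in the miR-23a/27a/24-2 cluster (0.0964 and 0.119 without Control 3). The median over the 3 pairs within the miR-23a/27a/24-2 cluster, leaving out the shared miR-24-3p, was 0.089, against 0.15 within the miR-23b/27b/24-1 cluster, 0.095 over the 3 paralogue pairs and 0.14 over the 6 pairs that cross clusters without being paralogues. Each median rests on few pairs that share members, so no test of their difference was made. miR-24-3p, which either locus could supply, had an SD of 0.097 with miR-23b-3p and 0.092 with miR-27b-3p, both wider than with miR-23a-3p and miR-27a-3p.

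**Figure D4:**
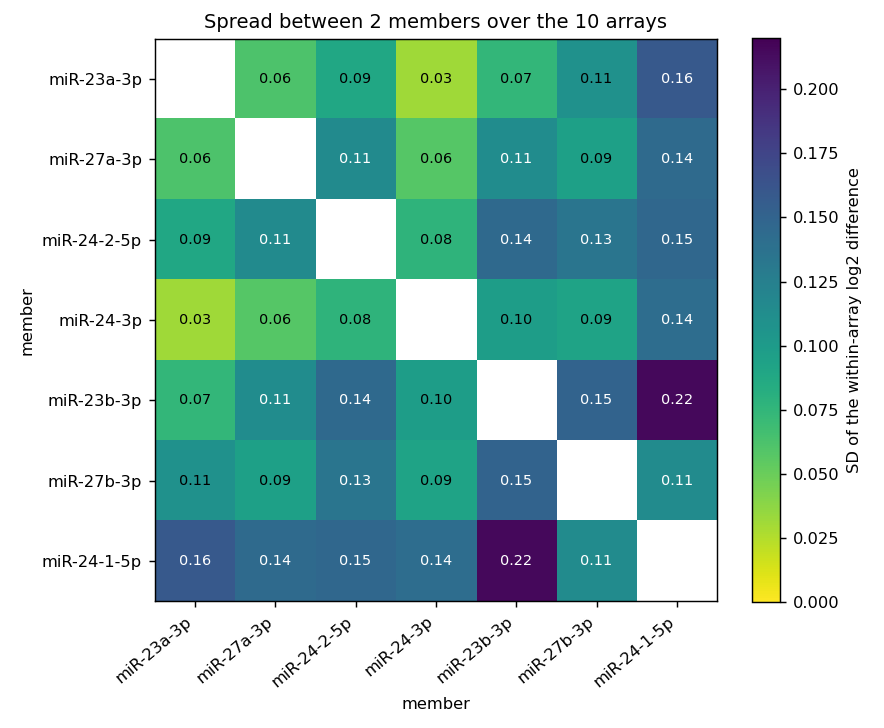
SD over the 10 arrays of the within-array log2 difference between 2 members (colour and number). The first 3 names are from the miR-23a/27a/24-2 cluster, miR-24-3p is encoded by both clusters, and the last 3 are from the miR-23b/27b/24-1 cluster. The smallest value is 0.032 (miR-23a-3p with miR-24-3p) and the largest is 0.22 (miR-23b-3p with miR-24-1-5p).

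Close ratios were not limited to the clusters. Among the 398 other miRNAs detected on every array, the most alike to miR-23a-3p were miR-107-3p (SD 0.044) and let-7e-5p (0.051). For miR-23b-3p they were miR-143-3p and miR-103-3p, both at 0.043 and so closer than its paralogue at 0.074. miR-27b-3p was nearest to miR-34a-5p (0.040) and miR-20b-5p (0.076), and miR-27a-3p to miR-30b-5p (0.063) and miR-30e-5p (0.076). miR-24-3p and miR-24-2-5p both had miR-107-3p (0.060 and 0.090) and miR-30e-5p (0.066 and 0.10) as their nearest, and miR-24-1-5p had miR-29b-3p (0.089) and miR-98-5p (0.093). For miR-23a-3p, miR-24-3p, miR-27a-3p and miR-24-2-5p another member was nearer than any of these.

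The comparison of paralogues asked whether the signal of a product of one cluster shifted against its paralogue between Control and DEX. The probes of the miR-23 pair and of the miR-27 pair may share target RNA, so a shift in these ratios could be missed. The log2 ratio of miR-27a-3p over miR-27b-3p within an array was 0.58, 0.47, 0.49, 0.47 and 0.57 on the Control arrays and 0.33, 0.48, 0.28, 0.50 and 0.40 on the DEX arrays. Of the DEX arrays, 3 lay below all Control arrays, and 2 lay among them. The ratio was lower in DEX by 0.12 on average (0.52 ± 0.053 in Control, 0.40 ± 0.093 in DEX, SD, n = 5; two-sided exact permutation test, p = 0.0714, adjusted over the 3 comparisons p = 0.214), which missed the threshold. Within slide 2 the difference was -0.21, with 1 Control array. Leaving out 1 array at a time gave unadjusted exact permutation p-values from 0.0238 (without DEX 4) to 0.127 (without DEX 3), of which those without DEX 4 and without DEX 2 (0.0397), the DEX arrays that lay among the Control arrays, were under 0.05 and the other 8 were not.

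In the other pairs the group means of the ratio differed by less than the spread between arrays. The log2 ratio of miR-23a-3p over miR-23b-3p was 0.067 ± 0.078 in Control and 0.055 ± 0.079 in DEX (SD, n = 5; exact permutation test, p = 0.810). For miR-24-2-5p over miR-24-1-5p it was 0.64 ± 0.17 in Control and 0.63 ± 0.14 in DEX (SD, n = 5; exact permutation test, p = 0.921). The adjusted p was 0.921 for both, and the smallest p that 5 arrays against 5 can give in this test is 0.00794. Within slide 2, DEX 1 to DEX 3 minus Control 5 was 0.015 for the miR-23 ratio and -0.34 for the ratio of the miR-24 5p arms. A slide 2 value larger than that of the miR-27 ratio thus also occurred where the group means were nearly equal.

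**Figure D5:**
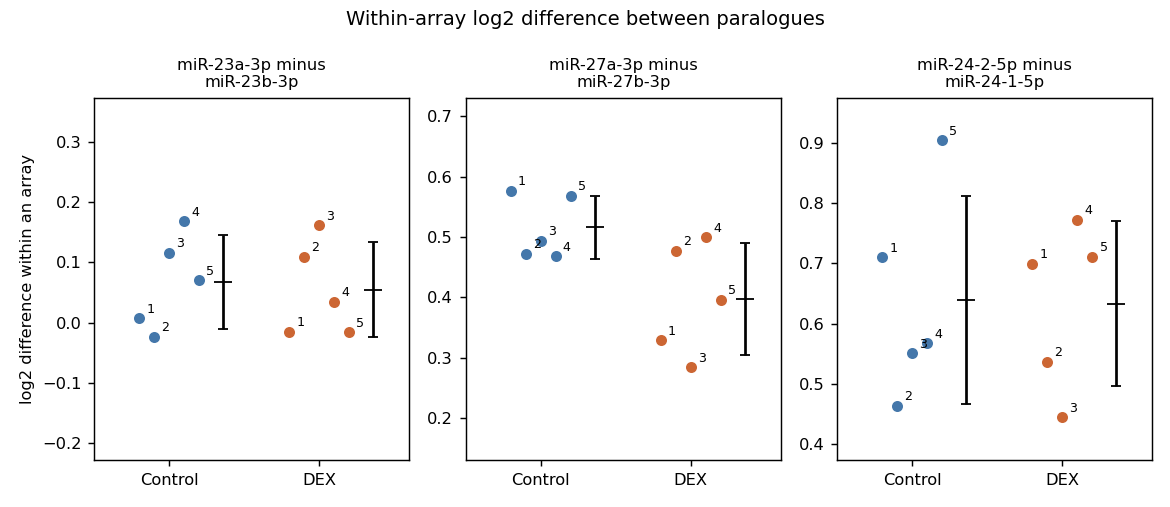
Within-array log2 difference between paralogues (vertical axis, the same height of scale in each panel) on the 5 Control and 5 DEX arrays (points, numbered by replicate) with mean and SD. For miR-27a-3p minus miR-27b-3p, DEX 1, DEX 3 and DEX 5 lie below all Control arrays; the groups overlap in every panel.

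The remaining arms of these hairpins gave signals near the median of their array or were missed on some arrays. rno-miR-23a-5p was detected on all arrays, at 25.5, 21.3, 19.8, 21.9 and 27.7 units in Control and 22.3, 23.9, 20.6, 25.8 and 32.6 units in DEX, a log2 difference of 0.10 ± 0.16 (± SE; adjusted p from limma, 0.914). rno-miR-27b-5p was detected on 3 arrays of each group (log2 difference 0.15 ± 0.25, ± SE; adjusted p from limma, 0.914). rno-miR-23b-5p was detected on 2 arrays of each group and rno-miR-27a-5p on 1 DEX array, too few to test.

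Of 16 other miRNAs of vessel growth and hypertrophy, all tested, 0 were called and 1 was below an unadjusted p of 0.05, 13 were higher in DEX, and the median log2 difference was 0.14. It ran from miR-214-3p (-0.069), known from fibroblasts, to miR-132-3p (0.61 ± 0.24, ± SE; adjusted p from limma, 0.905), a promoter of hypertrophy that was detected on only 6 arrays. miR-143-3p, a smooth muscle miRNA, was near the median at 0.15. Over all 503 tested miRNAs 0 were called, 15 were below an unadjusted p of 0.05 and 298 (59.2%) were higher in DEX. Among the brightest 168, 139 (82.7%) were higher. Several of the 16, miR-143-3p among them, are also in the cell type lists below, so the counts are not separate.

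Markers of the cell types in the wall were all detected. For heart muscle (miR-1-3p, miR-133a-3p and 4 others) 5 of 6 were higher in DEX with a median of 0.14, and the summed signal was 32203 to 46016 units in Control and 31096 to 45001 units in DEX. The medians were 0.068 for 2 endothelial markers and 0.10 for 2 smooth muscle markers, both markers higher in DEX in each list. Summed signals were 4360 to 5783 units in Control and 4370 to 6740 units in DEX for endothelium, and 2433 to 3711 and 2654 to 3857 units for smooth muscle. The fibroblast list had 2 of 3 higher in DEX with a median of 0.17, at sums of 498 to 878 units in Control and 602 to 886 units in DEX. Of 7 blood cell miRNAs 5 were higher in DEX, with a median of 0.13 and a summed signal of 1352 to 1829 units in Control and 1181 to 2031 units in DEX. Its members ran from miR-144-3p, a red cell miRNA (-0.75 ± 0.36, ± SE), to miR-223-3p of myeloid cells (0.34 ± 0.25). In each of these lists 0 members were called, and their part in the member values was not tested.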

How the data were processed

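Left ventricular RNA of 5 Control and 5 DEX rats was hybridized to one-colour rat miRNA arrays. Groups and replicate numbers came from the sample labels. Per the file headers, the deposited scanner files give 1 median spot intensity per probe, read at 635 nm and merged from 3 gains, without background removal. The deposited series table holds the authors' processed score: blank-subtracted intensity times 1 factor per array, rounded. This rule gave 99.8% of 5038 scores within 0.51, and the scores are linear and not centred (column medians 15 to 18). Every column of that table belonged to a listed sample. Software versions and a genome build for the arrays are not given in the sources used here. The members and lists were chosen with earlier results of these data known.

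The array's blank level (a mean without the outer 5% on either side) was taken off all spots. Signals were then scaled per array to a median of 25 over its detected miRNAs, undetected miRNAs were set to the array's lowest detected value, badly marked spots were missing, and log2 was taken. For the test, 503 miRNAs with detection on 5 arrays or more entered limma 3.58.1 (R 4.3.3, two-sided, Benjamini-Hochberg, threshold 0.05). Ratios of paralogues were compared by an exact permutation test (two-sided). The named miRNAs were the members, the other arms of their hairpins, the 2 miRNAs most alike to each member, and up to 3 per list (highest, lowest, nearest the median). The code of this fit was tested on simulated data. Alternatives covered background, scaling, source of values, filter, floor, slide (shared array name in the scanner file names), replicate number, test and leaving out arrays. The scanner's background column followed the spot signal over miRNAs (correlation 0.953 to 0.984) and was used only in an alternative. The number of arrays, 5 per group, limits the precision. Figures were drawn with matplotlib 3.10.9. Sequences and coordinates came from RefSeq tables of GRCr8, in which the members were matched by name.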

Additional observations from a re-analysis of the deposited data

How the results depend on the processing

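Under all 23 alternatives 0 of the 7 members were called, and 0 had an unadjusted p under 0.05 (smallest limma adjusted p among members 0.617 to 0.997). Over all tested miRNAs 0 were called in each, except that the methods' t-test at its own threshold on p and 1.5-fold gave 8, none a member, and 0 after Benjamini-Hochberg adjustment. The number at an unadjusted p under 0.05 ranged from 11 to 36.

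Signs were less stable. Log2 differences turned below 0 without scaling, which moves all miRNAs by about the same amount (miR-23a-3p -0.097, miR-23b-3p -0.084, miR-24-3p -0.075, miR-24-1-5p -0.052, miR-24-2-5p -0.059, miR-27a-3p -0.14, miR-27b-3p -0.024), with slide as a fixed term (-0.32, -0.34, -0.30, -0.0019, -0.35, -0.26 and -0.058 in that order; median of all tested -0.19; since the other sets hold 1 group each, this fit repeats DEX 1 to DEX 3 minus Control 5 and rests on that 1 Control array) and, for miR-23a-3p and miR-23b-3p, with quantile normalization (-0.073 and -0.0067). Relative to the median of all tested miRNAs, the members' median was 0.087 with and without scaling, 0.0046 with quantile normalization and -0.11 with slide as a fixed term. With normexp on the scanner's background column, miR-23a-3p was -1.67, miR-24-3p -0.18 and miR-24-2-5p -0.15, while miR-27b-3p was 1.82, miR-23b-3p 0.36, miR-27a-3p 0.021 and miR-24-1-5p 0.0030. That column read 77.6% to 120% of the spot for miR-23a-3p and 23.6% to 114% for miR-27b-3p, and it exceeded the spot on 3 and 2 arrays. For miR-23b-3p it read 54.6% to 115% and exceeded the spot on 3 arrays, and for miR-24-3p it did so on 1. Leaving out 1 array gave 0.016 to 0.21 for miR-23a-3p, 0.016 to 0.22 for miR-23b-3p, 0.032 to 0.23 for miR-24-3p, 0.10 to 0.24 for miR-24-1-5p, 0.073 to 0.27 for miR-24-2-5p, -0.040 to 0.14 for miR-27a-3p and 0.084 to 0.24 for miR-27b-3p.

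For the paralogue ratios, leaving out 1 array gave -0.039 to 0.013 for miR-23a-3p over miR-23b-3p, -0.14 to -0.090 for miR-27a-3p over miR-27b-3p and -0.050 to 0.060 for miR-24-2-5p over miR-24-1-5p. Without the 2 arrays of slide 3 (DEX 4 and DEX 5), the first was 0.018. With normexp, where the background column exceeded the spot on some arrays for both miR-23 probes, it was -2.04 (exact permutation p = 0.0159, unadjusted). The second was then -1.80 (exact permutation p = 0.0873, unadjusted). The cause was not tested.

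Equally numbered arrays shared little deviation from their group means: the correlation of deviations was 0.062, -0.081, 0.11, -0.0030 and 0.079. The labels do not state whether equal replicate numbers mark paired animals, and these values cannot decide it. With the replicate block, 0 members and 0 of all tested miRNAs were called (35 at an unadjusted p under 0.05). For the miR-27 ratio, group labels were then exchanged only within equally numbered pairs, and this exact test gave p = 0.25. With so few pairs that test cannot give a p under 0.05, so no conclusion is drawn from it.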
